A study of Danio rerio with 6 samples.

Results

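The genes described here are 10 liver-made components of blood clotting in zebrafish larvae, followed in dscaml1 mutants and their wild-type siblings. They were chosen by gene symbol alone (f2, f5, f7, f7i, f9a, f9b, f10, fga, fgb and fgg), and all 10 symbols were found, each for 1 of the 31901 genes of the deposited table. RNA-seq libraries came from 3 pools of dscaml1-/- larvae and 3 pools of wild-type siblings, with 6 to 11 larvae of 3.5 to 4 dpf in each pool. The mutants were homozygous for the vt1 allele, a small frameshifting deletion, both groups were progeny of heterozygous parents, and no larva was treated. The sample labels give the tissue as the whole animal, whereas the methods describe RNA from the anterior part of each larva, the posterior part having been used for genotyping.

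Clotting runs through a cascade of plasma proteases that hepatocytes secrete as inactive zymogens. Tissue factor with factor VII activates factors IX and X, and factor X with its cofactor, factor V, turns prothrombin (factor II) into thrombin. Thrombin then cuts fibrinogen, which is assembled from alpha, beta and gamma chains, into the fibrin of the clot. The zymogens encoded by f2, f7, f9a, f9b and f10 depend on vitamin K for a modification that lets them bind membranes, and zebrafish f7i encodes a relative of factor VII that lacks protease activity and acts as an inhibitor.

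The values are normalized counts, that is, read counts divided by 1 size factor per library. They correspond to 18725190 to 20476688 reads per mutant library and 21863982 to 23516860 reads per wild-type library. dscaml1 itself had 336 to 399.6 normalized counts in the mutants and 333 to 395 in wild type, so its transcript level checks no genotype label. Hepatocyte RNA was present in every library: 11 of the 12 hepatocyte markers looked for were found, and each of them had reads in every library. The replicate 2 pools of both genotypes stood apart. The 6 exocrine pancreas markers summed to 140 normalized counts in mutant replicate 2, against 67586 and 82636 in the other mutant pools, and to 300.4 in wild-type replicate 2, against 100527 and 140882 in the other wild-type pools. The liver fatty acid binding protein gene fabp10a, chosen after its values were seen, likewise had 129.6 normalized counts in mutant replicate 2, against 4020.1 and 4554 in the other mutant pools, and 214 in wild-type replicate 2, against 5253 and 5447 in the other wild-type pools. The cause of this split was not tested. Genotypes were therefore compared with a term in the model for replicate 2, and the main counts are also given without the replicate 2 pools.

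All 10 genes had a fitted log2 fold change below 0, from −1.01 for f5 through −0.86 for both f7i and f2 to −0.045 for f9a, whose sign depended on the processing. Their median log2 fold change, mutant over wild type, was −0.47, against 0.0050 over all 21302 genes tested. Calls were made where the limma p, adjusted over all tested genes by Benjamini-Hochberg, was under 0.05. By that rule 0 of the 10 genes were called lower, where 0.0751% of all genes were. At an unadjusted p under 0.05, 5 of the 10 (f5, f2, f7i, fga and fgb) were lower, against 7.90% of all genes, and 0 were higher. Without the replicate 2 pools of both genotypes, 0 were called and 4 were lower at an unadjusted p under 0.05. Limma called 0 of all 21302 genes in that fit, so the 0 is no result about these members. The share of all genes to set beside the 4 is not given here. Mutants were lower than wild type in all 3 pairs of equal replicate number for 6 of the 10 genes (the same 5 and fgg), against 20.6% of all genes. No gene of the 10 had every mutant library below every wild-type library, a pattern seen in 4.55% of all genes. In replicates 1 and 3 alone, 4 of the 10 (f2, f5, fga and fgb) had both mutant pools below both wild-type pools, against 21.3% of all genes. In bulk RNA of this kind, fewer hepatocytes and less RNA per hepatocyte cannot be told apart.

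**Figure D1:**
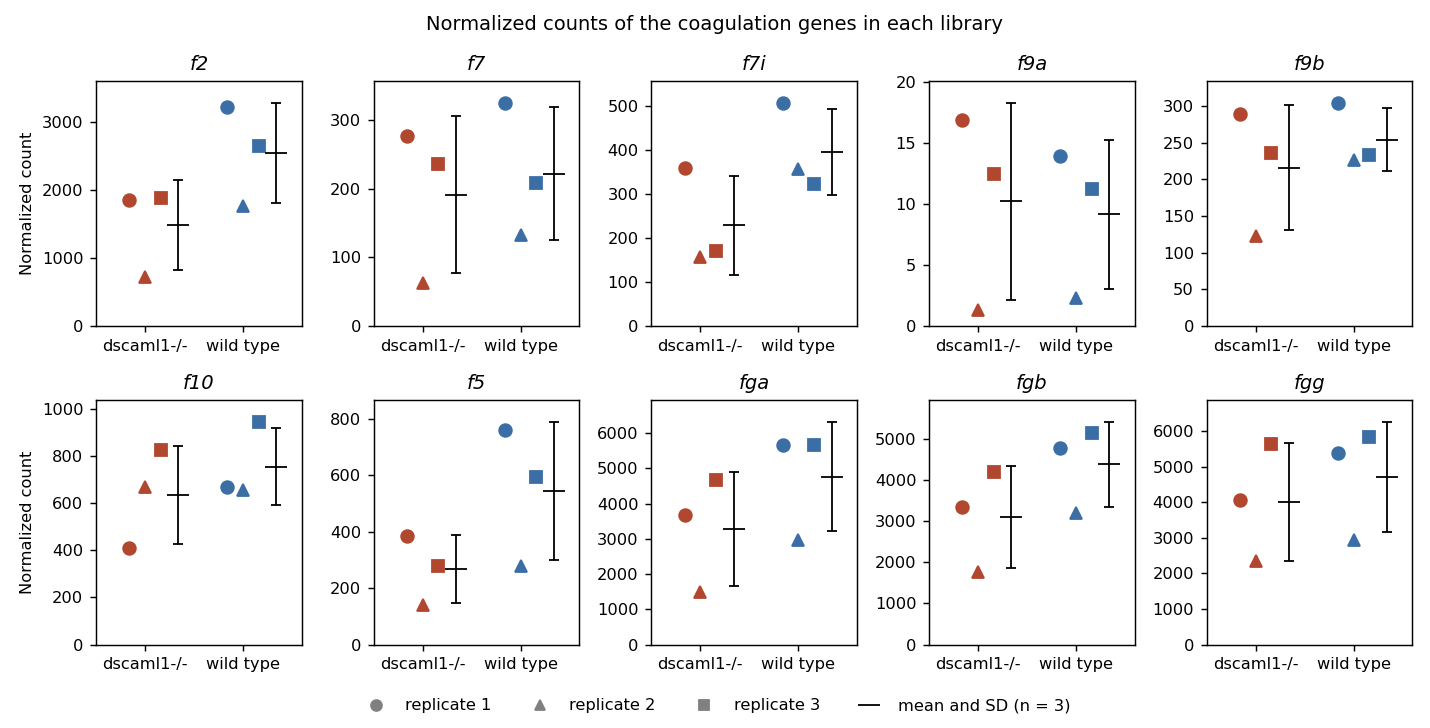
Normalized counts (vertical axis, from 0, a scale per gene) of the 10 genes in each library, with dscaml1-/- pools in red and wild-type pools in blue, replicate numbers as symbols, and the mean with SD (n = 3 pools) in black. The triangles of replicate 2 are the lowest mark of their genotype for most genes but not for f10 in the mutants or f7i in wild type. For f5 each mutant symbol lies at about 0.5 of the wild-type symbol of its number.

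f5 encodes factor V, the cofactor that speeds thrombin formation (ENSDARG00000055705, chromosome 9 of GRCz11 from 34127005 to 34147996). It had 384, 142 and 279 normalized counts in mutant replicates 1, 2 and 3, against 760.5, 277 and 596 in the wild-type replicates. Mutants averaged 268 ± 121 and wild type 545 ± 246 (SD, n = 3 pools each). The spread within each genotype lay mostly between replicate 2 and the rest. Between pools of equal number the mutant to wild-type ratio hardly varied: 0.505, 0.511 and 0.468 in replicates 1, 2 and 3. These ratios, and the fits with blocks below, take equal numbers as pairs, which the methods do not state. The log2 fold change was −1.01, with a standard error (SE) of 0.16 and an adjusted p of 0.107 from limma. With replicate numbers as blocks, f5 fell by 1.01 on the log2 scale and passed the test (limma adjusted p = 0.0309, edgeR adjusted p = 0.0332). It was then 1 of the 10 genes called lower by limma, against 0.174% of all genes. Without the replicate 2 pools the log2 fold change was −1.04.

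f2 encodes prothrombin, the precursor of thrombin (ENSDARG00000036041, chromosome 7 from 38750871 to 38760158). It had 1862, 725 and 1889 normalized counts in mutant replicates 1, 2 and 3, against 3224, 1770.4 and 2646 in the wild-type replicates. Mutants averaged 1492 ± 664 and wild type 2547 ± 732 (SD, n = 3 each). The groups overlapped only because wild-type replicate 2 lay under mutant replicates 1 and 3. The ratios within pairs were 0.578, 0.409 and 0.714, and the log2 fold change was −0.86 (limma, SE 0.15, adjusted p = 0.119). Without the replicate 2 pools it was −0.64.

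The genes for factor VII, its inhibitory relative and factor X lie side by side on chromosome 1, f7 from 119960 to 125246, f7i from 127250 to 134079 and f10 from 135903 to 142469, with gaps of 2003 and 1823 bases. f7i (ENSDARG00000075827) had 359, 156 and 171 normalized counts in mutant replicates 1, 2 and 3, against 505, 357 and 322 in the wild-type replicates. Among the mutant pools only replicate 1 reached the wild-type range, and without it the groups did not overlap. The log2 fold change of f7i was −0.86 (limma, SE 0.29, adjusted p = 0.268, and 0.0827 in the fit with replicate blocks), with pair ratios of 0.710, 0.438 and 0.530.

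f7 (ENSDARG00000034862), the protease that starts the cascade with tissue factor, had 276, 61.9 and 236 normalized counts in mutant replicates 1, 2 and 3, against 324, 132 and 208 in the wild-type replicates. Its groups overlapped widely. The log2 fold change was −0.38 (limma, SE 0.26, adjusted p = 0.558) and it was −0.026 without the replicate 2 pools. f10 (ENSDARG00000088581), whose protease makes thrombin, had 411, 668 and 824 normalized counts in mutant replicates 1, 2 and 3, against 668, 654 and 945 in the wild-type replicates. Mutant replicate 1 was the low pool here, not replicate 2. The log2 fold change of f10 was −0.29 (limma, SE 0.27, adjusted p = 0.674), and it was 0.044 without mutant replicate 1. These neighbours are related in sequence, and the sources used here do not give how reads shared between related genes were counted.

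The genes for factor IX, which works with factor VIII to activate factor X, were read at very unequal depth. f9b (ENSDARG00000029493, chromosome 10 from 26747755 to 26757486) had 289, 123 and 236 normalized counts in mutant replicates 1, 2 and 3, against 304, 227 and 233 in the wild-type replicates. In replicates 1 and 3 the genotypes were close, with pair ratios of 0.952 and 1.01, and in replicate 2 the ratio was 0.544. The log2 fold change was −0.31 (limma, SE 0.21, adjusted p = 0.557), and −0.025 without the replicate 2 pools. f9a (ENSDARG00000010097, chromosome 14 from 32430982 to 32438200) was counted in 26, 2 and 17 reads in mutant replicates 1, 2 and 3, and in 24, 4 and 19 reads in the wild-type replicates. A genotype difference in f9a was not detectable at this depth (log2 fold change −0.045, limma, SE 0.37, adjusted p = 0.972), and its sign changed with the pseudocount and the scaling.

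**Figure D2:**
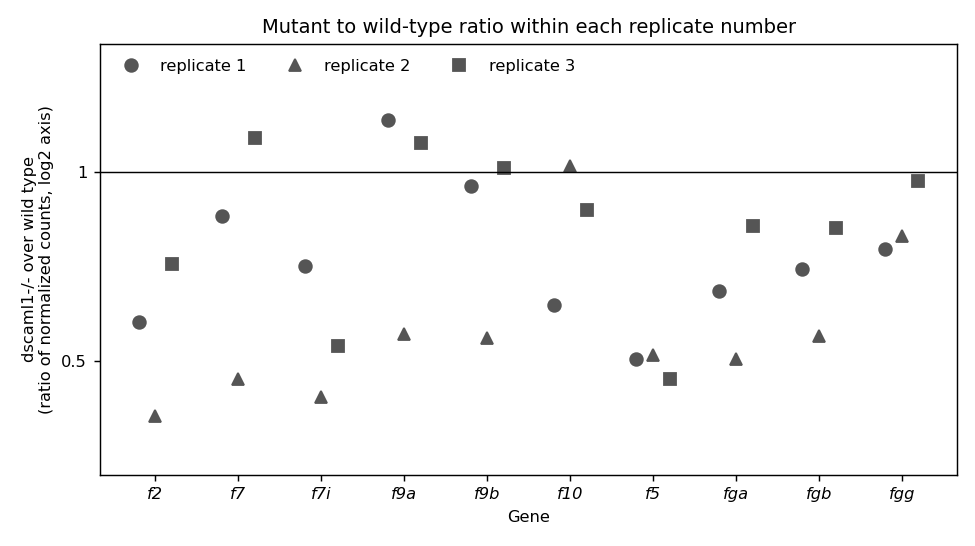
Ratio of normalized counts, dscaml1-/- over wild type, within each replicate number (vertical log2 axis, 1 marked by the line) for the 10 genes, with replicate numbers as symbols. The ratios of f5 lie together between 0.468 and 0.511, those of fgg between 0.754 and 0.970, and those of f7 and f9b are near or above 1 in replicate 3 and near 0.5 in replicate 2.

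The fibrinogen chains are built into the same protein, and none of their genes was called in the limma fit. fgb and fga are neighbours on chromosome 1, fgb from 10051763 to 10059496 and fga from 10063501 to 10071539, and fgg lies 15.6 Mb further on the same chromosome, from 25669799 to 25679383. fga (ENSDARG00000020741), the alpha chain, had 3662, 1496 and 4662 normalized counts in mutant replicates 1, 2 and 3, against 5656, 2968 and 5667 in the wild-type replicates. Mutants averaged 3273 ± 1618 and wild type 4764 ± 1555 (SD, n = 3 each), a log2 fold change of −0.63 (limma, SE 0.14, adjusted p = 0.149). In replicates 1 and 3 every mutant pool was below the wild-type pools, and wild-type replicate 2 lay below both of those mutant pools.

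fgb (ENSDARG00000008969), the beta chain, had 3358, 1759 and 4212 normalized counts in mutant replicates 1, 2 and 3, against 4794, 3209 and 5164 in the wild-type replicates. It followed fga library by library, with a log2 fold change of −0.56 (limma, SE 0.14, adjusted p = 0.165). fgg (ENSDARG00000037281), the gamma chain, had 4058, 2339 and 5651 normalized counts in mutant replicates 1, 2 and 3, against 5382, 2953 and 5826 in the wild-type replicates. Its log2 fold change was −0.26 (limma, SE 0.13, adjusted p = 0.433), and its pair ratios were 0.754, 0.792 and 0.970. The log2 fold change of fgg was −0.14 without mutant replicate 1 and −0.41 without mutant replicate 3. Mutant replicate 3 was above wild-type replicate 1, so the groups overlapped even without replicate 2.

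The chains were compared as a ratio within each library, which does not depend on the scaling. The ratio of fgg to fga was 1.11, 1.56 and 1.21 in mutant replicates 1, 2 and 3, against 0.951, 0.995 and 1.03 in the wild-type replicates. Every mutant pool lay above every wild-type pool, with a difference of 0.37 on the log2 scale (two-sided exact permutation test, p = 0.1). The ratio of fgg to fgb was 1.21, 1.33 and 1.34 in the mutant pools, against 1.12, 0.920 and 1.13 in the wild-type pools, again with no overlap (difference 0.30 on the log2 scale, exact permutation p = 0.1). The ratio of fgb to fga overlapped between the genotypes (exact permutation p = 0.6). A p of 0.1 is the smallest that 3 pools against 3 can give. In all, 7 ratios between members were computed, chosen after the values had been seen, and the lowest p adjusted over them was 0.35. The other 4 ratios, among f7, f7i, f10 and f9b, overlapped between the genotypes (exact permutation p from 0.4 to 1).

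**Figure D3:**
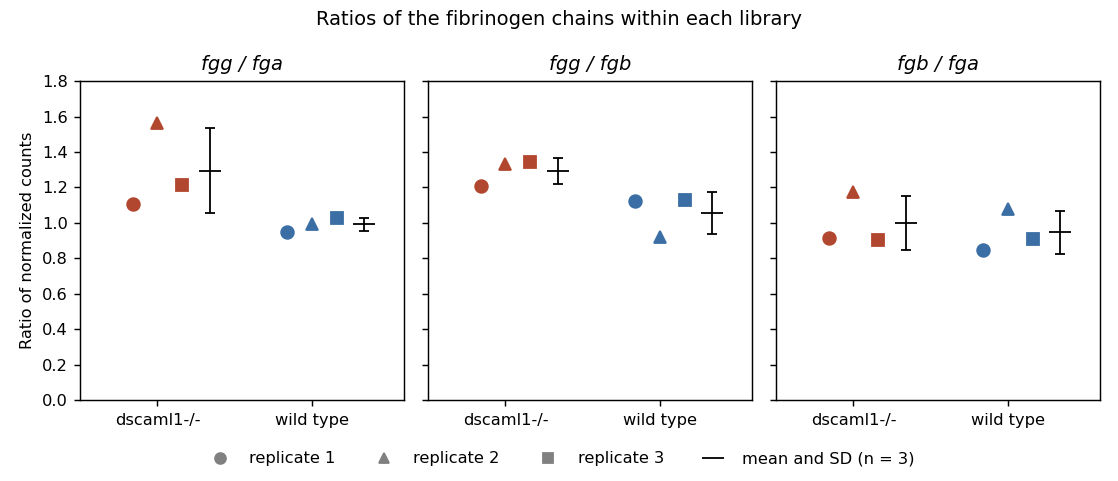
Ratios of normalized counts between fibrinogen chain genes (vertical axis, from 0) within each library, dscaml1-/- pools in red and wild-type pools in blue, replicate numbers as symbols, mean and SD (n = 3 pools) in black. The ratio of fgg to fga lies between 1.11 and 1.56 in the mutants and between 0.951 and 1.03 in wild type, and that of fgb to fga overlaps.

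DESeq2, run as a likelihood ratio test on recovered reads and with the replicate 2 term, called 4 of the 10 genes lower at an adjusted p under 0.05, against 2.18% of the genes with an adjusted p. They were f5 (adjusted p = 6.75e-05), f2 (0.000234), fga (0.00998) and fgb (0.0194), all from DESeq2. edgeR with that term called 0 of the 10, with 5 at an unadjusted p under 0.05. It called only 14 of all 21302 genes lower, so the 0 is no result about these members. With no term for replicate 2, limma, edgeR and DESeq2 each called 0 of the 10, and 0, 0 and 2 of them had an unadjusted p under 0.05. Over all genes those fits called 0, 0 and 21. The shares of all genes at an unadjusted p under 0.05 are not given here for edgeR or for the fits without the term.

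The fitted difference between replicate 2 and the other pools was larger in size than that between genotypes for all but f7i and f10. Against replicates 1 and 3, the replicate 2 pools were lower in 7 of the 10 genes at an adjusted p under 0.05 (f2, f5, f7, f9a, fga, fgb and fgg), where 17.8% of all genes were lower by that rule. The median log2 difference of the 10 genes was −1.01, and that over all genes tested was −0.00475. Without mutant replicate 2 the replicate 2 term rests on wild-type replicate 2 alone, so no count is given for that fit. In it the log2 difference was nearer to none for f2 (−0.72) and f7 (−0.97), and was −1.28 for f5.

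The differences by replicate were graded. fga had a log2 difference of −1.20 (limma, SE 0.15, adjusted p = 0.00129), and its replicate 2 pools were at 35.9% of the mean of replicates 1 and 3 in mutants and at 52.4% in wild type. f7 had a difference of −1.50 (limma, SE 0.27, adjusted p = 0.00589), with replicate 2 at 24.2% in mutants and 49.6% in wild type. f9a showed −2.40 on the log2 scale, resting on the 2 and 4 reads given above. f10 had −0.041 (limma, SE 0.28, adjusted p = 0.926) and replicate 2 at 108% of the other pools in mutants and 81.1% in wild type. f7i also did not pass (−0.42, limma adjusted p = 0.340), nor did f9b (−0.65, limma adjusted p = 0.0589). All 11 hepatocyte markers were lower in replicate 2 by the same rule, with log2 differences from −0.48 (apoa2) and −0.52 (tfa) to −4.84 (fabp10a) and −5.09 (ttr), markers picked after their values were seen.

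**Figure D4:**
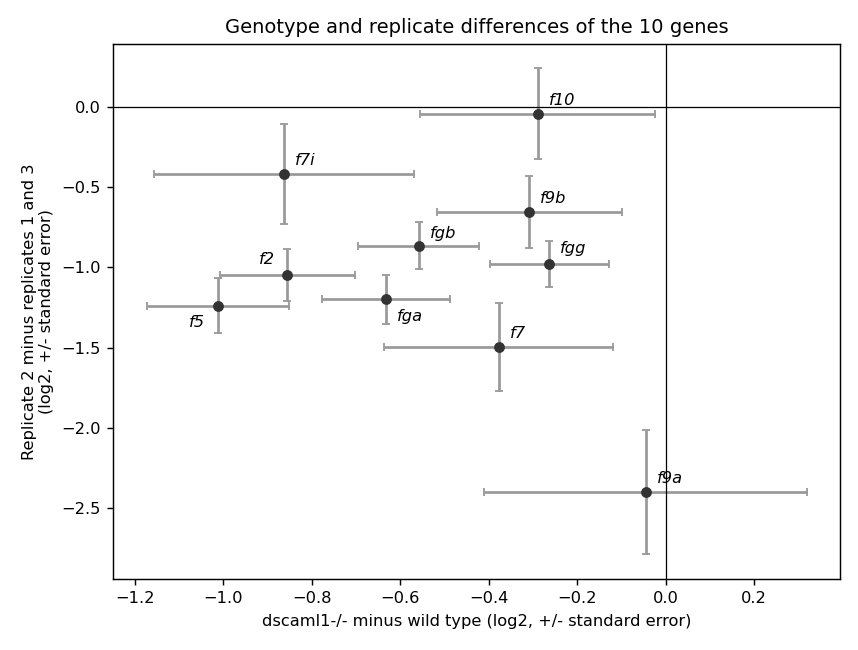
Log2 difference of dscaml1-/- minus wild type (horizontal axis) against log2 difference of replicate 2 minus replicates 1 and 3 (vertical axis) for the 10 genes, as points with standard errors from limma. f10 lies at −0.041 on the vertical axis, f7i at −0.42 and f9a at −2.40, and f5 lies farthest left, at −1.01.

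The other genes of clotting and clot breakdown covered the steps before, beside and after the 10. Of 40 symbols listed, 29 were found, as 30 gene identifiers, and 26 were tested. Of these, 1 was called lower, against 0.0751% of all genes, and 0 were called higher at an adjusted p under 0.05. At an unadjusted p under 0.05, 9 were lower and 2 higher, against 7.90% and 6.10% of all genes. Without the replicate 2 pools of both genotypes, 0 were called lower and 9 were lower at an unadjusted p under 0.05. That fit called 0 of all 21302 genes, and the share of all genes to set beside the 9 is not given here.

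The gene called lower was serpinf2b, a paralog for alpha-2-antiplasmin, the inhibitor of plasmin, which fell to 575, 211 and 608 normalized counts in mutant replicates 1, 2 and 3, against 1361, 686 and 1204 in the wild-type replicates (log2 fold change −1.31, limma adjusted p = 0.0390). It lies on chromosome 15 from 26540981 to 26552652, and dscaml1 lies on the same chromosome from 12071037 to 12229874. serpinf2b was not called by limma when any library was left out. Those fits called only 0 to 12 of all genes. plg, which encodes plasminogen, the precursor of plasmin, had 2153, 650.05 and 2119 normalized counts in mutant replicates 1, 2 and 3, against 4051, 1633 and 3262 in the wild-type replicates (log2 fold change −0.95, limma adjusted p = 0.0956). cpb2, whose product slows clot breakdown, had 136, 123 and 179 in the mutant pools, against 252, 215 and 275 in the wild-type pools, with no overlap (log2 fold change −0.77, limma adjusted p = 0.126). serpinf2a, the other antiplasmin paralog, had a log2 fold change of −0.69 (limma adjusted p = 0.133).

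Among the anticoagulants the signs differed. serpinc1, which encodes antithrombin, had 1746, 715 and 1566 normalized counts in mutant replicates 1, 2 and 3, against 2918, 1544 and 2356 in the wild-type replicates (log2 fold change −0.81, limma adjusted p = 0.110). serpind1 (heparin cofactor II) had a log2 fold change of −0.91 (limma adjusted p = 0.119) and proca (protein C) one of −0.54 (limma adjusted p = 0.279). tfpi2, a relative of tissue factor pathway inhibitor, had 116, 81.1 and 116 normalized counts in the mutant pools, against 63.3, 57.7 and 73.9 in the wild-type pools. Its mutant pools all lay above the wild-type pools (log2 fold change 0.66, limma adjusted p = 0.162). The other gene with a higher value at an unadjusted p under 0.05 was serpina10a, related to the protein Z-dependent inhibitor and picked after its values were seen (log2 fold change 0.28, limma adjusted p = 0.314).

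The genes listed for initiation and cofactors, for the contact system and for the vitamin K cycle were not called by limma. All of these that were tested had a log2 fold change below 0, except f3b. The 1 tested gene of fibrin cross-linking, f13a1b, had 0.0068 (limma adjusted p = 0.993). The share of all genes below 0 is not given here, and the median over all genes tested was 0.0050. f3a and f3b, for tissue factor, had log2 fold changes of −0.10 and 0.13 (limma adjusted p = 0.871 and 0.857), and vwf had −0.25 (limma adjusted p = 0.755). f8, for factor VIII, had 47.4, 206 and 61.8 normalized counts in mutant replicates 1, 2 and 3, against 141, 219.6 and 111 in the wild-type replicates (log2 fold change −0.82, limma adjusted p = 0.233), and its replicate 2 pools were the high ones. kng1, the kininogen gene, had a log2 fold change of −0.71 (limma adjusted p = 0.125). The vitamin K enzyme genes ggcx and vkorc1 had −0.19 and −0.21 (limma adjusted p = 0.583 and 0.726). With DESeq2, 7 of the 26 were called lower, against 2.18% of the genes with an adjusted p. They were serpinc1, serpind1, plg, serpinf2a, serpinf2b, cpb2 and kng1.

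Marker genes of hepatocytes and of other cell types that could share the samples were compared in the same fit, and their part in the results was not tested. Of the 11 hepatocyte markers found, 3 were called lower (tfa, cp and serpina1), against 0.0751% of all genes. At an unadjusted p under 0.05, 9 were lower, against 7.90% of all genes. The summed levels of the 11 markers were 97562 to 198087 normalized counts in mutants and 120360 to 201915 in wild type. Most of each sum came from apoa2 and rbp4, named here after their values were seen. Neither was lower at an unadjusted p under 0.05 (log2 fold changes −0.15 and 0.17 from limma). The 3 calls of hepatocyte markers came from the full set of libraries. Without mutant replicate 1, 1 hepatocyte marker was called, among 12 genes called in all. With any other library left out, or without the replicate 2 term, 0 were called. The count was also 0 without the replicate 2 pools of both genotypes (6 at an unadjusted p under 0.05). The share of all genes to set beside the 6 is not given here. Limma called 3 genes in all without wild-type replicate 1 and 0 in the rest of these fits. They therefore cannot show whether the marker calls are stable. None of the markers of the other cell types was called by limma. Of the 6 exocrine pancreas markers, 5 were lower at an unadjusted p under 0.05, against 7.90% of all genes. The sums of the 6 were 140 to 82636 in mutants and 300.4 to 140882 in wild type. By the same rule 4 of the 6 enterocyte markers were lower, with sums of 1707 to 16783 in mutants and 2669 to 30200 in wild type. Of the 4 endothelial markers tested, 3 were lower by that rule, with sums of 732 to 1289 in mutants and 1123 to 1537 in wild type, and pecam1 was at 0 throughout. Of the 6 thrombocyte markers, whose cells take part in clotting, 4 were tested and 0 were lower or higher by that rule, with sums of 109 to 223 in mutants and 143 to 205 in wild type.

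The mean profile of the 10 genes over the 6 libraries, after each gene was standardized, was closest to fga (Pearson r = 0.990), f2 (0.984) and fgb (0.979) among the 10 and least like f10 (0.191) and f7i (0.670). Outside the 10, the genes most like it were CABZ01033205.1 (r = 0.998), serpind1 (0.997), si:ch1073-90m23.1, npr1a and gmpr (0.996 each). An r above 0.9 was reached by 933 of 21292 other genes. The mean profile includes the 10 genes themselves, so their own r values are not independent of it. All r values are given as a description, and all points share the same 6 libraries.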

How the data were processed

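Poly(A) RNA from 3 dscaml1-/- and 3 wild-type pools was sequenced by the authors as strand-specific libraries. The submitters' notes name TopHat2, HISAT2, HTSeq and GRCz11, with versions not given in the sources used here. Each deposited value (a signal, never negative) is a read count that the authors scaled with a size factor for its library. Undoing this scaling returned whole reads for 100% of the values, with a tolerance of 0.001 reads. 0 per-sample columns were left unmapped. The authors' fold changes, p-values and mean column, and the short tables that repeat chosen genes, were not used.

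Values were tested with limma 3.58.1 (trend option, R 4.3.3). The scale was log2(value + 1), which understates changes of low genes, and 21302 genes whose mean was 5 or more were tested. All 10 members passed this filter. The fit held genotype and a term for replicate 2 and left 3 residual degrees of freedom. Adjustment was over all genes tested. The recovered reads were tested with the quasi-likelihood test of edgeR 4.0.16 (18 genes called at 0.05, against 21 with limma) and the likelihood ratio test of DESeq2 1.42.0 (590 called, adjusted p left undefined where DESeq2 gave none). The limma, edgeR and DESeq2 tests, with the replicate 2 term, were checked on simulated counts that held no replicate 2 difference.

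Replicate numbers come from the sample titles. Deviations from the genotype means correlated between pools of equal number (r = 0.651, 0.856 and 0.699 across genes). They also correlated, less strongly, between mutant 1 and wild type 3 (r = 0.500) and between mutant 3 and wild type 1 (0.346). The numbers were taken as pairs, a choice that the methods do not state. The pair ratios and the fits with replicate blocks rest on it. The methods call the libraries biological replicates and name no clutch or day, so p-values rest on how much these pools vary. Libraries of 1 genotype always differed by more than sampling noise (chi-square of at least 21.1 for each degree of freedom). The members, the lists and the replicate 2 term were chosen with earlier results of these data known. All members are named, and of each other list at most the 4 tested genes with the lowest p, with the exceptions marked in the text. The 5 most similar genes were taken by correlation.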

Additional observations from a re-analysis of the deposited data

How the results depend on the processing

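The count of members called lower by limma (0 of 10) stayed at 0 under other pseudocounts, filters and scaling. Those settings called only 21 to 23 genes in all, so their 0 is no result about these members. The count of members was also 0 without the replicate 2 term and with each library left out in turn. Those fits cannot tell the members from other genes either, because few genes or none were called in them. Limma called 0 genes without the term, 12 without mutant replicate 1, 3 without wild-type replicate 1 and 0 with any other library left out. The count of members was 1 with the replicate number as a block (limma and edgeR, f5 each time) and 4 with DESeq2. The replicate block changed no other member's call. With no replicate 2 term, the count at an unadjusted p under 0.05 (5) was 0 with limma or edgeR and 2 with DESeq2. It was 4 to 7 with libraries left out. The shares of all genes to set beside these counts are not given here. The median log2 fold change of the members ran from −0.62 to −0.43 with libraries left out.

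Members with every mutant pool below every wild-type pool numbered 0 to 4 with libraries left out, an alternative chosen after seeing the data. The count was 1 without mutant replicate 1, and 4 without wild-type replicate 2 or without replicate 2 of both genotypes. The share of all genes was 4.55% with every library and 21.3% without replicate 2 of both genotypes. It is not given for single libraries left out, and groups with fewer pools overlap less often for any gene. Members lower in replicate 2 numbered 2 to 8, the lowest without mutant replicate 2. The 1 call among the other clotting genes became 7 with DESeq2, where 2.18% of the genes with an adjusted p were called lower. It became 0 without the replicate 2 term (limma, edgeR and DESeq2) or with any library left out (0 to 0). Over all genes, limma and edgeR called 0 without the term and DESeq2 called 21. With a library left out, limma called 0 to 12 genes in all. These alternatives were also added after seeing the data, as were the counts of marker genes without single libraries.

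Among the members, the sign of the genotype difference changed for f9a and f10 only. No member was called by genotype in the main fit, so this says nothing about called genes. The genotype log2 fold change of f9a was 0.14 with DESeq2 and 0.16 with edgeR on genotype alone. With the replicate 2 term it was 0.022 with DESeq2 and 0.092 with edgeR. It was 0.042 with TMM scaling, 0.10 with edgeR and the replicate block and 0.026 at a pseudocount of 4. With libraries left out it ran from −0.23 to 0.20. The genotype log2 fold change of f10 ran from −0.53 to 0.044 with libraries left out. The replicate 2 difference of f10 ran from −0.29 to 0.20 with libraries left out. The difference in the fgg to fga ratio was 0.23 to 0.47 on the log2 scale with libraries left out, a range added after seeing the data. Depth limits f9a, with at most 26 reads per library.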
